A study of Mus musculus with 40 samples.

Results

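The genes described here encode membrane carriers of amino acids and of transmitters, in dorsal root ganglia of mice after spared nerve injury. They were taken by name from the array's probe table, as every gene whose symbol starts with Slc1a, Slc3a, Slc6a, Slc7a, Slc36a or Slc38a followed by a number. The rule used no measured value and gave 55 of 16593 genes with a symbol, on 78 probes. Of these, 39 were tested, among 10519 genes in all, because at least 3 arrays showed a probe of the gene over background. A further 16 genes were not tested and have no value here, among them Slc6a2 (noradrenaline carrier), Slc6a3 (dopamine carrier), Slc6a5 and Slc6a11 (neuronal glycine and glial GABA carriers) and Slc7a1 (a cationic amino acid carrier). The symbol Slc7a6os satisfies the rule but names a gene on the opposite strand of Slc7a6, which is no carrier. All counts of carrier genes below, among them the 55 and the 39, include it.

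All animals were adult male C57BL/6J mice, 9 to 10 weeks old, with no transgene. In the injured mice, 2 branches of the sciatic nerve (tibial, common peroneal) were tied and cut under isoflurane and the sural branch was spared, and the naive mice had no treatment. The naive group has 7 arrays, and the 33 injured arrays form 12 groups, with 3 arrays at 8 h, 16 h and 1, 2, 3, 5, 6, 7 and 8 days and 2 arrays at 4, 9 and 10 days. The times were joined into an early phase (8 h to 1 day, 9 arrays), a middle phase (2 to 5 days, 11 arrays) and a late phase (6 to 10 days, 13 arrays). No sham-operated group was analysed here, so injury and surgery cannot be told apart. Whether each array stands for 1 mouse or for a pool is not stated, so p-values reflect the variation among these samples, some of it possibly technical.

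Sensory ganglia hold neuron cell bodies, the satellite glia around them, Schwann cells, macrophages, vessels and connective tissue. The Slc1 family holds the sodium-driven glutamate carriers, which end glutamate signals and feed neurons with cysteine, and a pair of neutral amino acid exchangers. The Slc6 family takes up serotonin, glycine, GABA, taurine, creatine and neutral amino acids along the sodium gradient. Several Slc7 proteins are light chains that reach the membrane only when bound to a heavy chain such as Slc3a2, and other Slc7 proteins carry arginine and lysine alone. Slc36 and Slc38 proteins move small neutral amino acids and glutamine across the plasma membrane or out of lysosomes. Several of these genes are known targets of Atf4, the transcription factor that cells raise when amino acids run short or proteins misfold.

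Because Atf4 and its partners bind a joint C/EBP-ATF element, promoters of the carrier genes were searched for that element, TTGCATCA, on both strands. RefSeq promoters of GRCm38.p6, each of 300 bases and reaching 50 bases past a start, were found for 40 of the 55 genes (60 promoters). The element was present in 4 of the 60 promoters (6.67%), against 0.895% of 32851 promoters of all genes. These 4 belong to 3 genes, Slc1a4, Slc7a11 and Slc7a7. Slc1a4 passed upwards in the middle and late phases and Slc7a7 downwards in the middle phase. Slc7a11 passed upwards late only. Leaving out single arrays ended the calls of Slc7a7 and of Slc7a11. A promoter of each is shown, with that of Slc6a4, which had the largest difference, 5′ to 3′ on the gene's strand, with the element in capitals. The first match in Slc7a11 and the match in Slc7a7 are on the reverse strand and read TGATGCAA.
Slc1a4 (chr11:20332664-20332963, minus strand): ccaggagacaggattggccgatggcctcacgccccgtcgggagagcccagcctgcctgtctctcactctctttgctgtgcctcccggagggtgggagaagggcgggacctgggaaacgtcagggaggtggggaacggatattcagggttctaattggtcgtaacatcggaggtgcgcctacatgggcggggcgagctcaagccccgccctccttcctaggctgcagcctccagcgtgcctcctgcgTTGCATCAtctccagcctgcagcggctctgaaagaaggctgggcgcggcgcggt
Slc7a11 (chr3:50443564-50443863, minus strand): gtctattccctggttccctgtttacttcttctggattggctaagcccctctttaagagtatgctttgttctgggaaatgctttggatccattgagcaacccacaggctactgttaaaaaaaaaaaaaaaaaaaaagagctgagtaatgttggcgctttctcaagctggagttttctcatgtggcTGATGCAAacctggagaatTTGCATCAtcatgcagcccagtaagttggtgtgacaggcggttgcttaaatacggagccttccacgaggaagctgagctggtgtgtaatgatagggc
Slc7a7 (chr14:54417895-54418194, minus strand): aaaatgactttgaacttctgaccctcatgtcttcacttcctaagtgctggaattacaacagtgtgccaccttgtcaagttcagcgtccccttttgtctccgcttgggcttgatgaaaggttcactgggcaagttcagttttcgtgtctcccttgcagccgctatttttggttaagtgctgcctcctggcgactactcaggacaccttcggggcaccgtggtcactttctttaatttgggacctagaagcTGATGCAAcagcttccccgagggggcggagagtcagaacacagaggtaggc
Slc6a4 (chr11:76998347-76998646, plus strand): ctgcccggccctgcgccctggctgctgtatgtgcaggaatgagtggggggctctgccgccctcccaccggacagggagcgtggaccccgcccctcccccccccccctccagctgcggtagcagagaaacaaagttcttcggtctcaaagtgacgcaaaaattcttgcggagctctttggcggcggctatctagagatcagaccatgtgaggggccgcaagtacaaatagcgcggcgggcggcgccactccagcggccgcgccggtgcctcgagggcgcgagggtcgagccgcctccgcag
The match in Slc1a4 begins 4 bases before the start, and those in Slc7a11 begin 66 and 47 bases before it. The match in Slc7a7 begins 1 base before the start, and the same site lies in a second, overlapping promoter of that gene. The cyclic AMP element TGACGTCA was in none of the 60 promoters and in 1.79% of all promoters, and the AP-1 element TGANTCA was in 8 of the 60 (13.3%) and in 7.81% of all. No other carrier promoter that was found held the C/EBP-ATF element. Those without it include promoters of Slc6a4, Slc1a1 and Slc38a8, which also passed in a phase. A link between the element and a change in signal was not tested. No match means only that these letters are absent from the window, and a match is a description of sequence, not of binding.

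Values are log2 signals after background correction and quantile normalization, differences are log2 differences of group or phase means with the standard error of the model, and a gene passed when its adjusted p was under 0.05. A probe under a log2 signal of about 6.85 could not be told from background. Array medians before normalization ranged from 130.2 to 244.5 intensity units, and the number of arrays limits the precision. The neuron markers were bright on every array (summed signal of 11 genes from 73599 to 97347), whereas Kcnj10 and Sox10 of satellite glia had no tested probe. Markers of macrophages moved with the injury, with a summed signal of 7 genes of 2773 to 3749 naive and 5254 to 9437 late, all 7 passing upwards late. The summed signal of 6 skeletal muscle genes varied between arrays from 530.1 to 32749, and the highest array was 8 days, replicate 1. In whole ganglia, fewer cells of a type and less RNA per cell cannot be told apart.

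The carriers did not move as one group. In the early phase no tested carrier gene passed (0 of 39, against 1.12% of all genes), with 5 genes at an unadjusted p under 0.05, where 11.3% of all genes lay. In the middle phase 12 passed, 6 higher and 6 lower, which is 30.8% of the 39 against 10.9% of all genes (5.72% higher, 5.21% lower). Among the 6 higher is Slc7a6os, which is no carrier. In the late phase 13 passed, 7 higher and 6 lower, which is 33.3% against 10.9% of all genes (5.76% higher, 5.11% lower). The median difference of the 39 genes was -0.06 early, 0.00 in the middle phase and 0.00 late, beside -0.01, -0.01 and -0.02 over all genes. The median size of the difference, whatever its sign, was 0.19 in the middle phase and 0.17 late for the carriers, beside 0.11 and 0.09 for all genes. Under median centring in place of quantile normalization the counts became 5 in the middle phase (3 higher, 2 lower) and 8 late (4 higher, 4 lower), while 6.89% and 5.49% of all genes were called. With that scaling the higher share of all calls was 41.4% in place of 52.3% in the middle phase and 65% in place of 53% late.

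**Figure D1:**
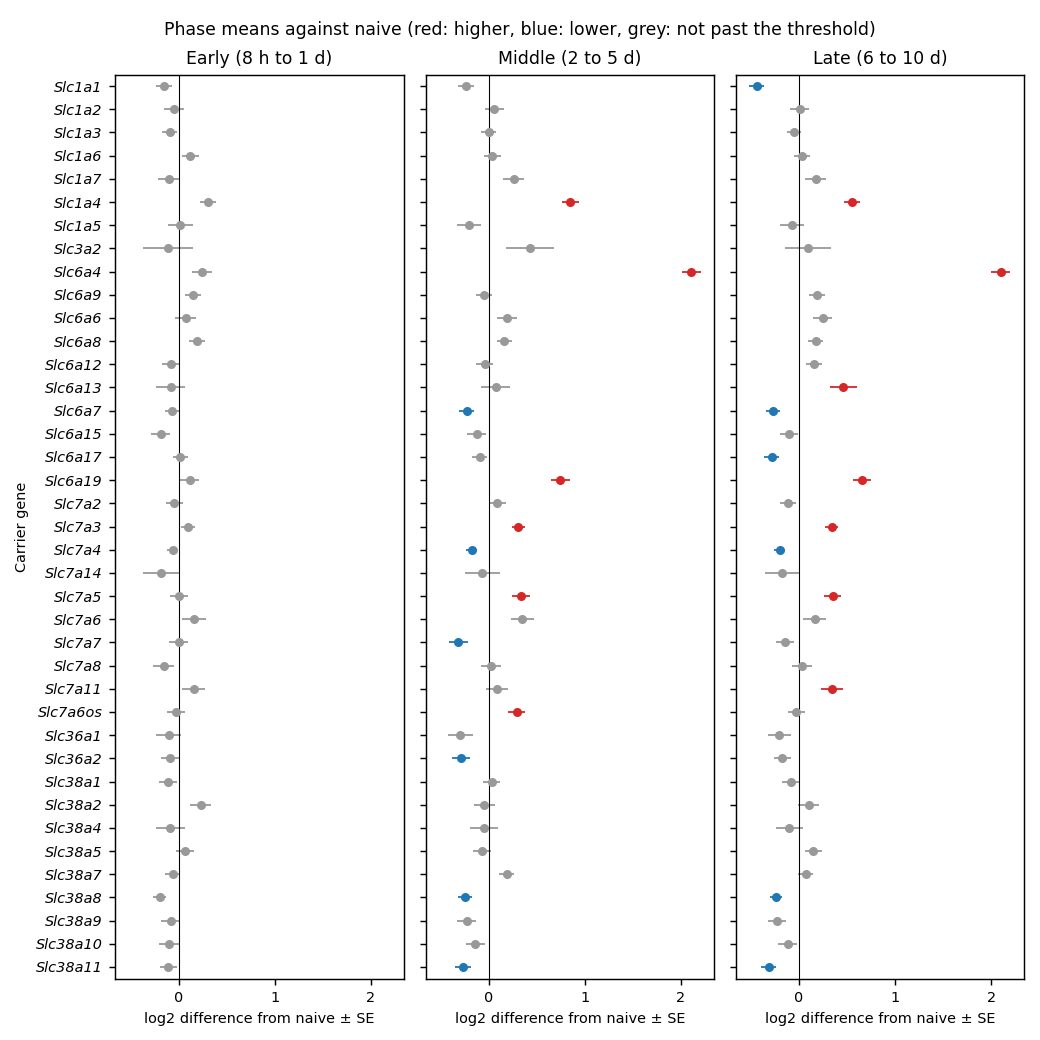
Log2 difference of each of 39 tested carrier genes from naive (x axis, ± standard error of the model) in the early, middle and late phases (panels share the x axis), grouped by role down the y axis. Red and blue points passed upwards and downwards and grey points did not pass. None passed early, and Slc6a4 stands at fitted values of 2.11 and 2.10 in the middle and late phases. Its naive arrays all lay below the detection level, and the bounds against that level are 1.39 and 1.38.

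By single times, 45 comparisons of a carrier gene with naive passed, 34 higher and 11 lower, in 13 genes, and 26 genes passed at no single time. None passed at 8 h or 16 h, where 0.105% and 0.713% of all genes did. Slc1a4 alone passed at 1 day (1.65% of all genes). At 2 days 7 genes passed, or 17.9% of the 39, against 3.86% of all genes. The count was 4 at 3 days (10.3%, against 5.82%), 3 at 4 days (7.69%, against 2.45%) and 7 at 5 days (17.9%, against 6.93%). It was then 5, 8 and 6 at 6, 7 and 8 days (12.8%, 20.5% and 15.4%), where all genes passed at 5.2%, 6.05% and 4.18%. It was 2 each at 9 and 10 days (5.13%), where the groups hold 2 arrays and 2.02% and 2.8% of all genes passed. The F-test over all 12 times called 8 carriers (20.5%, against 7.52% of all genes), namely Slc1a1, Slc1a4, Slc6a4, Slc6a6, Slc6a13, Slc6a19, Slc7a3 and Slc7a5. All times share the naive arrays, so these counts are not separate samples of the same event.

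**Figure D2:**
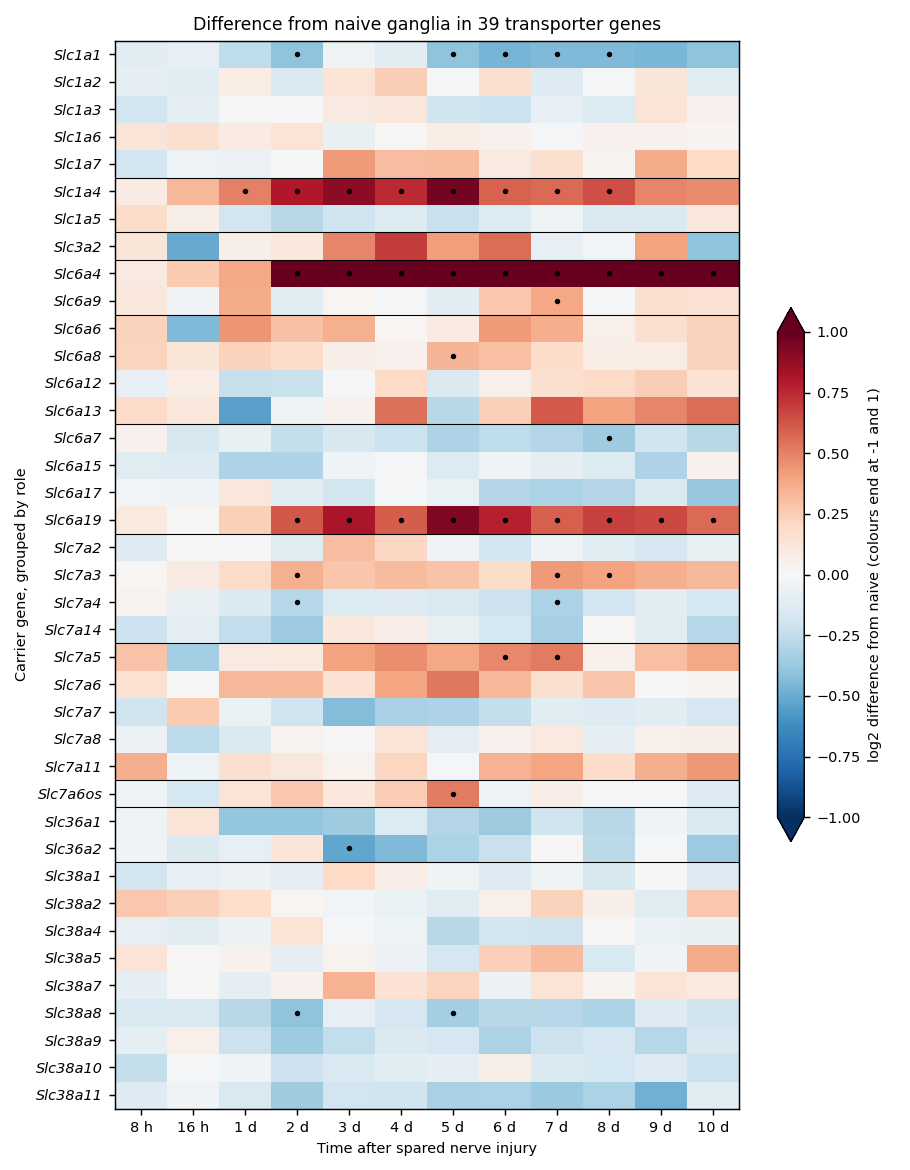
Log2 difference from naive of 39 tested carrier genes (rows, grouped by role) at each of 12 times after injury (columns); red is higher, blue lower, and colours end at -1 and 1. Black dots mark the 45 differences past the threshold, which are most frequent in the rows of Slc6a4, Slc6a19 and Slc1a4.

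Among the carriers of monoamines and glycine, the serotonin carrier went from background to a clear signal between 1 and 2 days. Slc6a4 encodes the plasma membrane serotonin carrier, the target of the antidepressants that block serotonin uptake. Its log2 signal on the 7 naive arrays was 5.97 at the lowest, 6.13 at the median and 6.29 at the highest, and all lay below the detection level. The 9 early arrays, from 6.00 to 6.68, were also all below it. At 2 days the 3 arrays read 7.73, 7.85 and 8.03. The 11 middle arrays ranged from 7.73 to 8.84 with a median of 8.25, and the 13 late arrays from 7.85 to 8.53 with a median of 8.32. Every array from 2 days on therefore lay above every earlier array and above the detection level. Slc6a4 thus met the filter of 3 arrays only through middle and late arrays, and its calls also held without that filter. Under this normalization the signal was at least 2.63-fold higher than naive in the middle phase (limma, adjusted p = 1.02e-17) and at least 2.61-fold higher late (adjusted p = 4.73e-18), which is 1.39 and 1.38 on the log2 scale. The bound compares the phase mean with the detection level that stands in for the naive arrays, and the measured means were 6.14 naive, 8.25 in the middle phase and 8.24 late. Group means stayed between 7.87 and 8.48 at all 9 times from 2 to 10 days, and Slc6a4 passed at each of them. With the neqc background correction the fitted log2 differences were 1.25 and 1.24, below these bounds, and still passed, so the bounds hold for the normexp correction only.

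Several other genes that handle serotonin could not be compared with it, as Tph1, Ddc, Maoa, Slc18a2 and Slc22a3 were not tested. Of 8 such genes, 3 were tested, and Tph2 (the neuronal enzyme of serotonin synthesis), Maob (a monoamine oxidase) and Slc29a4 (a low-affinity monoamine carrier) did not pass against naive, with differences of 0.10 ± 0.06, -0.05 ± 0.06 and 0.09 ± 0.08 late. Tph2 passed for late minus early, at 0.20 ± 0.06 (adjusted p = 0.0297). Mast cells and platelets also carry serotonin. Of 6 tested mast cell markers only Hdc, the enzyme that makes histamine, passed against naive, at 0.62 ± 0.09 in the middle phase and 0.32 ± 0.09 late, while the proteases Cpa3 and Mcpt4 gave 0.09 ± 0.13 and 0.14 ± 0.14 late. Of 6 tested platelet markers, Pf4 (0.89 ± 0.24 late) and Gp1bb (0.61 ± 0.12 late) passed, and Itga2b (-0.03 ± 0.09) and Ppbp (0.08 ± 0.18) did not. The summed signal of the 6 mast cell genes was 932.1 to 1180 naive, 921 to 1282 in the middle phase and 921.4 to 1482 late. That of the 6 platelet genes was 679.3 to 826.7 naive, 884.1 to 1372 in the middle phase and 714.2 to 1185 late. For the platelet genes every middle array thus lay above every naive array, while the late arrays overlapped them. These lists were chosen after the values of Slc6a4 had been seen, and the part of such cells in its signal was not tested. Slc6a9, the glycine carrier of glia, did not pass in a phase (0.19 ± 0.08 late, adjusted p = 0.156) and passed upwards at 7 days (0.38 ± 0.12, adjusted p = 0.0496).

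**Figure D3:**
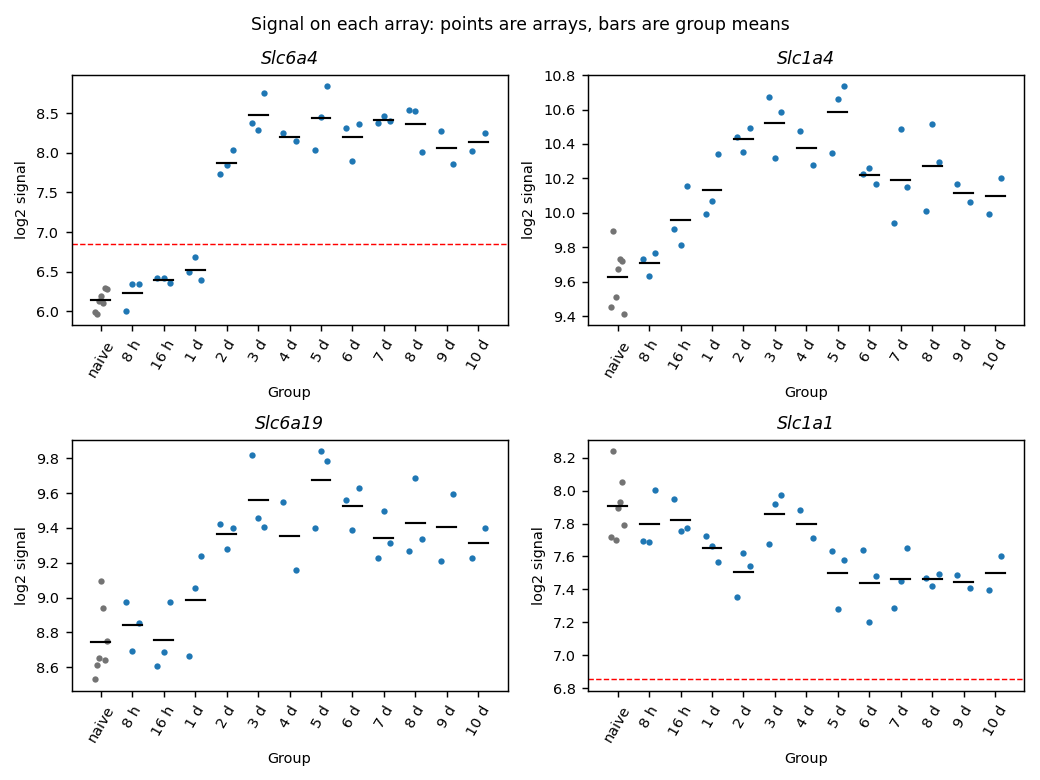
Normalized log2 signal (y axis) of Slc6a4, Slc1a4, Slc6a19 and Slc1a1 on each of 40 arrays by group (x axis), with points for arrays and bars for group means; the red dashed line is the detection level of 6.85. The Slc6a4 arrays cross the level between 1 and 2 days, Slc1a4 and Slc6a19 lie above all naive arrays in the middle and late phases, and the 13 late Slc1a1 arrays lie below all naive arrays.

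Of the neutral exchangers of the Slc1 family, Slc1a4 rose and Slc1a5 did not pass. Slc1a4 encodes ASCT1, which exchanges serine, alanine, cysteine and threonine. On the naive arrays it read 9.41 at the lowest, 9.67 at the median and 9.90 at the highest. The early arrays ranged from 9.63 to 10.34 (median 9.90), the middle arrays from 10.28 to 10.74 (median 10.48) and the late arrays from 9.94 to 10.51 (median 10.17). All 11 middle and all 13 late arrays lay above the highest naive array, as did 5 of the 9 early arrays. The difference was 0.85 ± 0.08 in the middle phase (limma, adjusted p = 2.69e-09) and 0.55 ± 0.08 late (adjusted p = 7.33e-06). The early difference of 0.31 ± 0.09 missed the threshold (adjusted p = 0.083). By single times Slc1a4 passed first at 1 day (0.51 ± 0.12, adjusted p = 0.0167), was highest at 5 days (0.95 ± 0.12) and missed the threshold at 9 days (0.49 ± 0.14) and 10 days (0.47 ± 0.14). Slc1a5, or ASCT2, the exchanger best known for glutamine uptake by dividing cells, lay above the detection level on 7 of 40 arrays and differed by -0.21 ± 0.13 and -0.07 ± 0.12.

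Of the 5 glutamate carriers, which were all tested, Slc1a1 fell late and the other 4 did not pass in any phase. Slc1a1 encodes EAAC1, the neuronal glutamate carrier that also brings cysteine into neurons. Its naive arrays ranged from 7.70 to 8.24 with a median of 7.89. The late arrays ranged from 7.20 to 7.65 with a median of 7.47, so that all 13 lay below every naive array. The late difference was -0.44 ± 0.08 (limma, adjusted p = 0.000122). The middle difference of -0.24 ± 0.08 missed the threshold (adjusted p = 0.0519) but passed in 17 alternative settings, 10 of them with a single array left out and others such as neqc (adjusted p = 0.0481) and median centring (adjusted p = 0.0154), and 7 of 11 middle arrays lay below all naive arrays. The middle phase was uneven, with -0.40 ± 0.12 at 2 days and -0.40 ± 0.12 at 5 days, both past the threshold, and -0.05 ± 0.12 at 3 days and -0.11 ± 0.13 at 4 days, which did not pass. Among neuron markers, 2 of 11 passed downwards late, namely Rbfox3 at -0.24 ± 0.05 and Isl1 at -0.23 ± 0.05, and the part of neuron content in the fall of Slc1a1 was not tested. The glial carriers Slc1a2 (GLT-1) and Slc1a3 (GLAST) differed by 0.00 ± 0.10 and -0.05 ± 0.08 late. Slc1a3 was above the detection level on all 40 arrays, whereas Slc1a2 was above it on 6.

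The GABA, taurine and creatine carriers gave a single late call. Slc6a13 encodes GAT2, a carrier of GABA and taurine. On the naive arrays it ranged from 8.47 to 8.93 (median 8.64) and on the late arrays from 8.68 to 9.67 (median 9.14), with 8 of 13 late arrays above all naive arrays. The late difference was 0.46 ± 0.14 (limma, adjusted p = 0.0314), against 0.07 ± 0.15 in the middle phase. Its group means moved unevenly, from 8.15 at 1 day to 9.24 at 4 days, 8.42 at 5 days and 9.30 at 7 days, and no single time passed. Fibroblast markers moved over the same phases, with Col1a1 (collagen) at 0.80 ± 0.14 and Lum (lumican) at 0.64 ± 0.12 late, 2 of 6 passing, and a summed signal of 14374 to 18058 naive and 16427 to 22507 late. The part of these cells in the Slc6a13 value was not tested. With the skeletal muscle signal as a covariate, a setting chosen after seeing the data, the late difference of Slc6a13 was 0.37 and missed the threshold (adjusted p = 0.0613). It also missed it when 1 of 8 single arrays was left out, with an adjusted p of up to 0.103 without 9 days, replicate 1. The others of these 8 are naive replicates 1 to 5, 6 days replicate 3 and 10 days replicate 1.

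The taurine carrier Slc6a6 passed the F-test (adjusted p = 0.0183) but in no phase and at no single time. Its group means were 10.69 naive, 10.24 at 16 h, 11.13 at 1 day and 11.11 at 6 days, so the widest swing lay between neighbouring early times. The creatine carrier Slc6a8 passed upwards only at 5 days (0.34 ± 0.11, adjusted p = 0.0496) and differed by 0.17 ± 0.07 late, which did not pass. Slc6a12, a betaine and GABA carrier, did not pass in any phase.

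Among the other Slc6 carriers, Slc6a19 rose while Slc6a7 and Slc6a17 fell. Slc6a19 encodes B0AT1, the neutral amino acid carrier known for uptake in gut and kidney. On the naive arrays it read 8.53 at the lowest, 8.65 at the median and 9.09 at the highest. The middle arrays ranged from 9.16 to 9.84 (median 9.42) and the late arrays from 9.21 to 9.69 (median 9.39), and every array of both phases lay above all naive arrays. The difference was 0.74 ± 0.10 in the middle phase (limma, adjusted p = 8.64e-07) and 0.66 ± 0.09 late (adjusted p = 3.81e-06). Slc6a19 passed at all 9 times from 2 to 10 days, from 0.57 ± 0.16 at 10 days to 0.93 ± 0.14 at 5 days. The early arrays, from 8.60 to 9.24, overlapped the naive ones, and the early difference of 0.11 ± 0.10 did not pass.

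Slc6a17 encodes a neutral amino acid carrier of synaptic vesicles in neurons. Its naive arrays ranged from 10.08 to 10.43 (median 10.32) and its late arrays from 9.65 to 10.18 (median 9.98), with 7 of 13 late arrays below all naive arrays. The late difference was -0.29 ± 0.07 (limma, adjusted p = 0.00921), while the middle difference of -0.10 ± 0.08 did not pass. Slc6a7 is the proline carrier of glutamatergic terminals in the brain. Naive arrays gave 7.17 to 7.47 (median 7.28) and late arrays 6.88 to 7.25 (median 7.01), with 10 of 13 late arrays below all naive arrays. It fell by 0.23 ± 0.07 in the middle phase (adjusted p = 0.0409) and by 0.28 ± 0.07 late (adjusted p = 0.00948). The middle call of Slc6a7 ended when 1 of 11 single arrays was left out, with an adjusted p of up to 0.104 without 4 days, replicate 2.

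Of the 5 tested light chains, 1 passed upwards and 1 downwards in the middle phase and 2 passed upwards late, and their heavy chain did not pass. Slc7a5 encodes LAT1, which brings in leucine and other large neutral amino acids. Its naive arrays ranged from 10.96 to 11.35 (median 11.02), its middle arrays from 11.08 to 11.79 (median 11.53) and its late arrays from 11.07 to 11.82 (median 11.47). The groups overlap, although 6 of 11 middle and 10 of 13 late arrays lay above all naive arrays. The difference was 0.34 ± 0.09 in the middle phase (limma, adjusted p = 0.0121) and 0.35 ± 0.09 late (adjusted p = 0.00648). Under median centring these were 0.22 (adjusted p = 0.241) and 0.32 (adjusted p = 0.0752), past the threshold in neither phase. By single times Slc7a5 passed at 6 days (0.48 ± 0.13) and 7 days (0.52 ± 0.13), and its group mean was lowest at 16 h (10.77).

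Slc3a2, the heavy chain 4F2hc that brings Slc7a5, Slc7a6, Slc7a7, Slc7a8 and Slc7a11 to the membrane, did not pass. It read from 6.68 to 8.22 on the naive arrays (median 7.09, SD 0.63), and 4 of these 7 arrays lay above the detection level. On the middle arrays it read from 7.09 to 8.28 (median 7.78), all above the level. The middle difference was 0.43 ± 0.25 (limma, adjusted p = 0.303), and the late one 0.09 ± 0.24. Its SD within groups, 0.55, was the widest of the 39 genes, beside a median of 0.19 over all genes, so a difference of the size seen in Slc7a5 was not detectable in it.

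Slc7a11 encodes xCT, which exchanges cystine for glutamate and feeds glutathione synthesis. All 7 naive arrays lay below the detection level (6.40 to 6.78), and 8 of 13 late arrays lay above it (6.48 to 7.31, median 7.00). It was at least 1.10-fold higher late (measured means 6.65 naive and 6.99 late, limma, adjusted p = 0.048). That call ended when any 1 of 25 arrays was left out, with an adjusted p of up to 0.122 without naive replicate 5. Slc7a11 met the filter of 3 arrays only through injured arrays, and without that filter the late call was lost (adjusted p = 0.0659). The call was lost in 6 settings other than single arrays left out, among them median centring (adjusted p = 0.0622) and robust variances with array weights (adjusted p = 0.0736). Slc7a7, or y+LAT1, a carrier of cationic and neutral amino acids expressed in macrophages, fell in the middle phase by 0.32 ± 0.10 (adjusted p = 0.0314). The naive arrays gave 10.27 to 10.78 and the middle arrays 9.94 to 10.31, with 9 of 11 below all naive arrays. Late it differed by -0.15 ± 0.09, which did not pass. A second probe gave -0.24 ± 0.10 in the middle phase (adjusted p over probes = 0.136). The call ended without naive replicate 1, 3 or 7 or 4 days replicate 1, with an adjusted p of 0.056 to 0.105. Of the macrophage markers, 6 of 7 passed upwards in the middle phase, such as C1qc at 1.10 ± 0.12 and Mrc1 at 1.23 ± 0.13. The part of macrophages and of other cells in the Slc7a7 value was not tested. Slc7a8 (LAT2) and Slc7a6 (y+LAT2) did not pass, and the largest value was 0.35 ± 0.12 for Slc7a6 in the middle phase (adjusted p = 0.0566).

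**Figure D4:**
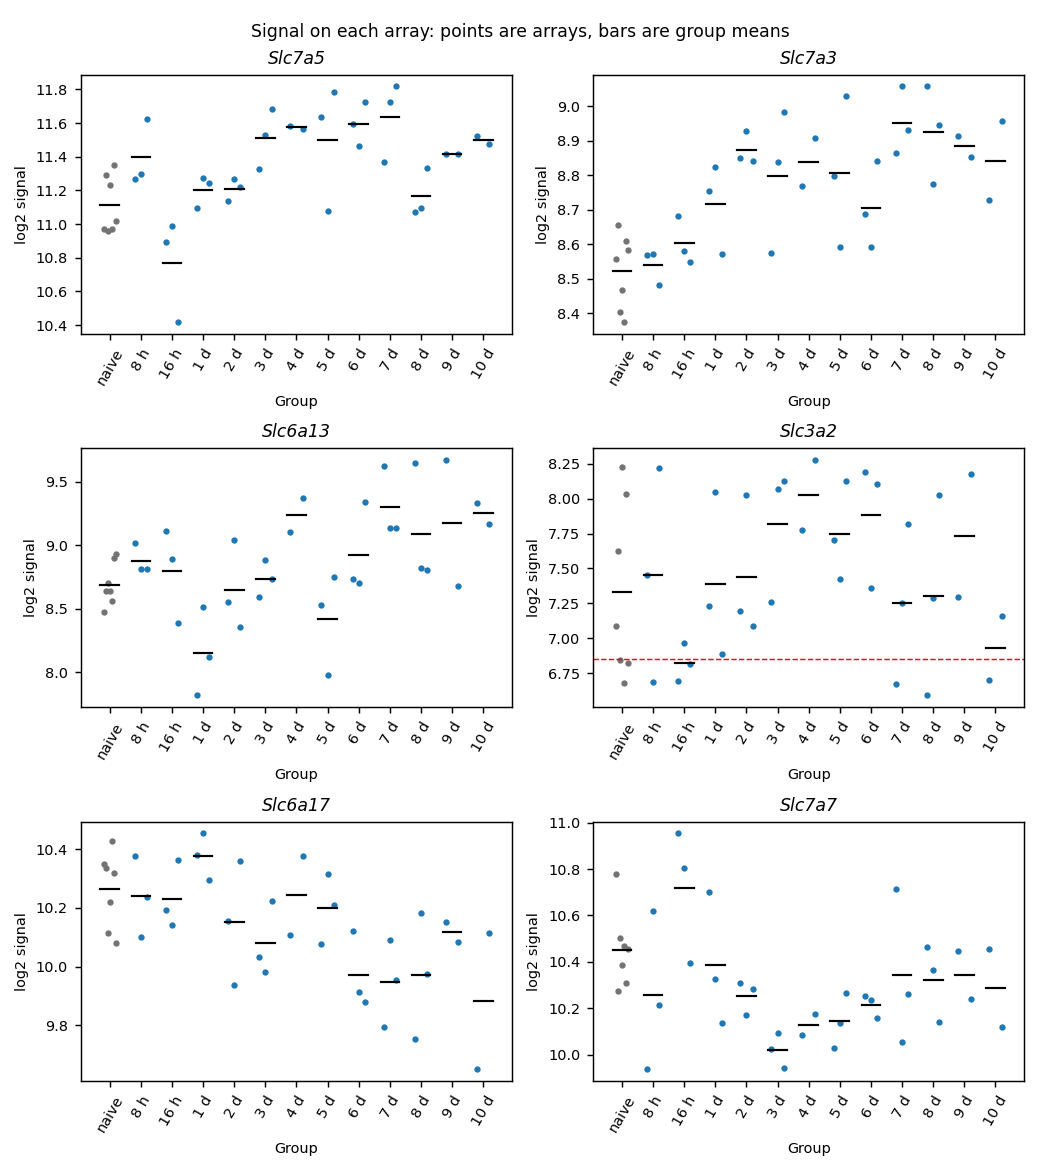
Normalized log2 signal (y axis) of Slc7a5, Slc7a3, Slc6a13, Slc3a2, Slc6a17 and Slc7a7 on each of 40 arrays by group (x axis), with points for arrays and bars for group means; the red dashed line in the Slc3a2 panel is the detection level of 6.85. The Slc3a2 points spread from 6.68 to 8.22 within the naive group alone, and the Slc7a7 means are lowest from 3 to 5 days.

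Among the cationic carriers, Slc7a3 rose on its brighter probe and Slc7a4 fell. Slc7a3 encodes CAT3, a carrier of arginine and lysine. Its naive arrays ranged from 8.37 to 8.66 (median 8.56), its middle arrays from 8.57 to 9.03 (median 8.84) and its late arrays from 8.59 to 9.06 (median 8.86). All but 2 middle arrays and all but 1 late array lay above the naive range. The difference was 0.31 ± 0.07 in the middle phase (limma, adjusted p = 0.00207) and 0.34 ± 0.07 late (adjusted p = 0.00043). The other kept probe of Slc7a3, near background with 21 of 40 arrays above the level, gave -0.23 ± 0.08 and -0.15 ± 0.08 (adjusted p over probes = 0.0692 and 0.276). With the mean of both probes the differences were 0.04 and 0.09 and passed in neither phase (adjusted p = 0.675 and 0.286), so the rise of Slc7a3 rests on 1 probe. Under median centring its middle difference was 0.19 and did not pass (adjusted p = 0.213). Slc7a4, a relative of these carriers, fell by 0.18 ± 0.06 in the middle phase (adjusted p = 0.0466) and by 0.20 ± 0.06 late (adjusted p = 0.0188). Its late call ended without naive replicate 3 (adjusted p = 0.0524), and its middle call without any 1 of 23 arrays (adjusted p up to 0.137 without 4 days, replicate 2).

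Of the 9 tested sodium-coupled neutral carriers, Slc38a8 and Slc38a11 fell in the middle and late phases, where 5.21% and 5.11% of all genes did. None passed upwards, where 5.72% and 5.76% of all genes did, so with 9 genes the lack of a rise says little. Slc38a8, a glutamine carrier best known from the retina, read 7.51 to 7.78 on the naive arrays (median 7.65) and 7.19 to 7.55 late (median 7.38). It lay below all naive arrays on 8 of 11 middle and 11 of 13 late arrays, with differences of -0.25 ± 0.07 (limma, adjusted p = 0.0142) and -0.24 ± 0.07 (adjusted p = 0.0134). Slc38a11 lay close to the detection level, with 5 of 7 naive, 1 of 11 middle and 2 of 13 late arrays above it. Its differences were -0.27 ± 0.08 (adjusted p = 0.0342) and -0.32 ± 0.08 (adjusted p = 0.00798), and its size there is limited by background. The middle call of Slc38a11 ended without 1 of 7 arrays (naive replicates 1, 2 and 3, 2 days replicate 2, 3 days replicate 1, 4 days replicate 2 or 5 days replicate 1), with an adjusted p of up to 0.088. The glutamine carriers Slc38a1 and Slc38a2 did not pass, at -0.09 ± 0.09 and 0.10 ± 0.11 late. Slc38a9, the arginine sensor of the lysosome, differed by -0.23 ± 0.10 late on its brighter probe (adjusted p = 0.137) and by -0.35 ± 0.10 on its other probe (adjusted p over probes = 0.0254). Of the proton-coupled carriers, Slc36a2 fell by 0.29 ± 0.10 in the middle phase (adjusted p = 0.0474), a call that ended without any 1 of 25 arrays (adjusted p up to 0.11 without naive replicate 3), and Slc36a1 did not pass.

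Slc7a6os, the gene on the opposite strand of Slc7a6, was higher in the middle phase by 0.29 ± 0.09 (limma, adjusted p = 0.0344) and did not differ past the threshold late (-0.03 ± 0.09). Its 11 middle arrays all lay above the detection level, against 3 of 7 naive arrays. The call ended without 1 of 9 arrays, with an adjusted p of up to 0.0977 without naive replicate 1.

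The late and early phases were compared directly, to ask which carriers differed between them. Of the 39 genes 9 passed, 6 higher and 3 lower late, which is 23.1% against 7.08% of all genes (4.4% higher, 2.68% lower). Those higher late were Slc6a4 (1.85 ± 0.09, limma, adjusted p = 2.9e-17), Slc6a19 (0.54 ± 0.09), Slc6a13 (0.54 ± 0.13), Slc7a5 (0.34 ± 0.08), Slc1a4 (0.25 ± 0.08) and Slc7a3 (0.24 ± 0.06). Slc6a4 had no array above the detection level early, so its fitted value is no bound. Those lower late were Slc6a17 (-0.30 ± 0.07), Slc1a1 (-0.29 ± 0.07) and Slc6a7 (-0.21 ± 0.07). The adjusted p of Slc6a7 was 0.0497 and ended past the threshold without any 1 of 29 arrays (up to 0.156 without 1 day, replicate 1), and that of Slc1a4 was 0.0429 and did so without any 1 of 15 (up to 0.106 without 1 day, replicate 1). Median centring ended the late minus early calls of Slc6a13 (adjusted p = 0.0705), Slc7a5 (0.094), Slc7a3 (0.249) and Slc1a4 (0.344), and with the mean of its probes Slc7a3 gave 0.09 (adjusted p = 0.351).

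Genes that share pathways with the carriers gave mixed counts. Over all genes 1.12% passed early in either direction, and 5.72% and 5.76% passed upwards in the middle and late phases. Of 14 tested genes of the Atf4 response, 3 passed upwards early, 4 in the middle phase and 5 late, with none lower. These were Atf4 itself (0.22 ± 0.05, 0.27 ± 0.05 and 0.36 ± 0.05 across the phases), Atf3 (2.93 ± 0.12, 3.78 ± 0.11 and 3.57 ± 0.11), the glutathione-degrading enzyme Chac1 (0.47 ± 0.09, 1.27 ± 0.09 and 1.16 ± 0.09), Eif4ebp1, a brake on translation (0.65 ± 0.10 and 0.72 ± 0.09 in the middle and late phases), and late also Nupr1 (0.34 ± 0.11). Asparagine synthetase, Asns, a classic target of Atf4, did not pass (0.20 ± 0.07 late, adjusted p = 0.0754). The median of the list was 0.16 in the middle phase and 0.21 late, beside -0.01 and -0.02 for all genes.

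Of 10 tested genes of amino acid synthesis, 3 passed upwards and 1 downwards late, where 5.76% and 5.11% of all genes did. Psat1, of serine synthesis, rose by 0.47 ± 0.08, Bcat1, which transfers the amino group of leucine, isoleucine and valine, by 0.42 ± 0.10, and Shmt2, which turns serine into glycine, by 0.28 ± 0.09. Ass1, of arginine synthesis, fell by 0.31 ± 0.06. None of the 8 tested glutathione genes passed in a phase. None of the 4 tested vesicular transporters passed, and Slc17a6, the main vesicular glutamate carrier of sensory neurons, differed by -0.04 ± 0.05 late. Of 7 tested enzymes of glutamate and GABA, Gad1, which makes GABA, passed upwards in the middle phase (limma, adjusted p = 0.0344). Its naive and late arrays all lay below the detection level, so no size is given. Gad1 thus met the filter of 3 arrays only through early and middle arrays. Aldh5a1, which breaks GABA down, passed downwards late (-0.31 ± 0.09). Of 11 tested carriers of amino acids from other families, Slc15a3 was at least 1.65-fold higher in the middle phase and at least 1.95-fold higher late. Slc15a3 is a histidine and peptide carrier of lysosomes. Its naive arrays all lay below the detection level, so it also met the filter only through injured arrays. Whether Gad1 and Slc15a3 pass without that filter is not given here. Slc66a1 of the same list, a lysosomal exporter of cationic amino acids, passed in the middle phase (0.27 ± 0.08). Of 15 tested genes of lysosomal amino acid sensing, Rragb, a Rag GTPase, fell by 0.38 ± 0.07 and 0.25 ± 0.07, and the other 14 did not pass. Of all genes, 10.9% passed in the middle phase and 10.9% late. In lists this short, no call or 1 call is near that share and says little about the glutathione, vesicular or lysosomal genes.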

How the data were processed

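Per the labels, total RNA of dorsal root ganglia was labelled with biotin and hybridized to Illumina bead arrays, 1 array per sample (40). Per the file headers, the deposited table gives an intensity (signal) and a detection p-value for each of 25697 probes and array. In the authors' second deposited table the values are log2, and differ by at most 0.0382 from signals that were quantile-normalized and logged. Background correction before deposit is not given in the sources used here.

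Background was corrected by normexp (offset 50), followed by quantile normalization and log2. On 37 arrays the detection p-values do not follow the array's own signal, so the detection level comes from the other 3, as the mean of their smallest normalized values that reach a detection p under 0.05 (6.85, range 6.82 to 6.88). A probe was kept if 3 or more arrays exceeded that level (15462 probes), and the brightest kept probe stands for a gene, which applies to 9 carriers with several. A detection column of 10 days, replicate 2, is named for 216 h, and the array was kept as labelled. Genes were named by the platform's probe table, and all 55 carriers were matched to RefSeq of GRCm38.p6 by Entrez number.

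limma 3.58.1 in R 4.3.3 was fitted to all 10519 genes with 1 mean per group over 40 arrays, contrasts of phases and times with naive and of late with early, and a moderated F-test, with Benjamini-Hochberg adjustment over all genes within each comparison and a threshold of 0.05. The fit was tested on simulated data. Where no naive array passed the detection level, values are given as at least N-fold against that level. Arrays of a group correlated at 0.969 to 0.995 over genes and none were identical. Alternatives were neqc, the authors' log2 table, median centring, other probe filters, the mean of a gene's probes, arrays of the compared groups only, robust variances with array weights, replicate blocks, each array left out, and, chosen after seeing the data, skeletal muscle signal or the array's median signal as a covariate. Named genes are those past the threshold in the F-test or a phase comparison, plus a fixed list of well-known carriers, and up to 4 per phase and other list. The genes and lists were chosen with earlier results of these data known.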

Additional observations from a re-analysis of the deposited data

Results flagged for a closer look

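For 9 carriers the difference from naive itself differed between the late and the early phase, by the test of late minus early (limma, adjusted p under 0.05). Slc6a4 had no naive or early array above the detection level, so its fitted value is no bound. The log2 values were 1.85 for Slc6a4, 0.54 for Slc6a19, 0.54 for Slc6a13, 0.34 for Slc7a5, 0.25 for Slc1a4 and 0.24 for Slc7a3. They were -0.30 for Slc6a17, -0.29 for Slc1a1 and -0.21 for Slc6a7. Median centring ended the calls of Slc6a13, Slc7a5, Slc7a3 and Slc1a4 (adjusted p = 0.0705, 0.094, 0.249 and 0.344), and the mean of its probes that of Slc7a3 (0.09, adjusted p = 0.351).

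In the naive group, 1 array stood apart for Slc7a6os. Replicate 2 had a log2 signal of 7.49, while the other 6 naive arrays lay between 6.74 and 7.04, all near the detection level. Chance sets apart about 1 in 20 such groups, and 26 genes were looked at.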

How the results depend on the processing

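No named difference past the threshold changed its sign under any alternative tried. The alternative settings, 2 of them covariates chosen after seeing the data, left 1136 of the 1208 named gene values on the same side of the threshold. They ended 60 calls and made 12. Of 34 named differences past the threshold, 23 kept their call when any single array was left out. Leaving out each array in turn gave 7 to 9 carriers in the F-test, 7 to 10 for late minus early, 10 to 13 late, 8 to 13 in the middle phase and 0 to 0 early, with 38 to 53 calls over single times. Median centring gave 4 carriers in the F-test, 5 for late minus early, 8 late and 5 in the middle phase, with 28 calls over single times. Slc6a4, Slc1a4 and Slc6a19 were still past the threshold there in both phases, and Slc38a8 in the middle phase. Late, Slc1a1, Slc6a7, Slc6a17, Slc7a3 and Slc38a11 were also still past it. Slc1a1 passed in the middle phase too (-0.30, limma, adjusted p = 0.0154). The losses in the middle phase were Slc36a2, Slc38a11, Slc6a7, Slc7a3, Slc7a4, Slc7a5, Slc7a6os and Slc7a7, and late Slc38a8, Slc6a13, Slc7a4, Slc7a5 and Slc7a11. The cause was not tested. With only the arrays compared there were 29 calls over single times, since fewer arrays set the spread. Robust variances with array weights gave 1 carrier early (Slc1a4), 26 in the F-test and 79 calls over single times, where 2.02%, 43.3% and 7.94% of all genes (for single times, of all comparisons of a gene with naive) were called, in place of 1.12%, 7.52% and 3.48%, and the muscle covariate gave 1 early (Slc1a4). With the labels' replicate number as a block the counts were 5 in the middle phase, 6 late and 5 in the F-test, where 6.17%, 5.24% and 4.8% of all genes were called. Replicate numbers above 3 occur only in the naive group, so that fit took the naive mean from 3 of the 7 naive arrays. A second block, by runs of the numbers in the sample names, kept all 7 naive arrays. With it 6 carriers passed upwards and 4 downwards in the middle phase, where 10.5% of all genes were called. Late, 6 passed upwards and 6 downwards, where 10.8% of all genes were called. The part of the lost naive arrays in the lower counts with the replicate number was not tested. Deviations of arrays with the same number correlated at 0.00848 on average, against -0.00347 for other pairs, so the numbers do not pair the arrays. Values near the detection level were smaller with neqc, such as Slc38a11 at -0.16 and -0.19 and Slc7a11 at 0.21 late, and Slc6a4 kept its call in every alternative. The 7 naive arrays, and signals near background for Slc1a2, Slc1a5, Slc1a7, Slc7a11 and Slc38a11, limit what could be seen.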
